A study of Mus musculus with 3 samples.

Results

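C1qa, C1qb, C1qc, Apoe, Mrc1, Ms4a7, Cxcl14, Cd72 and Slamf9 are 9 genes that mark tumor macrophages or their neighbors, and they were measured here among 33696 genes in CD45+ cells from KP1 tumors. They were taken as a fixed list by gene symbol, and all 9 were present, each in 1 row of the deposited tables. The genes were chosen by their measured levels in the macrophage, monocyte and dendritic cell clusters and the Cd3-bearing barcodes of these same libraries, so the levels that follow describe where they were found and test nothing. KP1 is a line of mouse small-cell lung cancer (SCLC) with mutations in Rb and p53, grown under the skin of wild-type B6129SF1/J (F1) mice. Every group received a cytokine at 3 µg per dose into the abdomen on alternate days from day 7 to day 19 by the sample labels, and tumors were taken on day 19. The groups were mono-IL-10 (labeled Supermono-10), an engineered IL-10 alone, the IL-10/2-Trikine (labeled 10/2-Trikine), an IL-10 fusion that also recruits the IL-2 receptor β chain, and a combination, in which the IL-10/2-Trikine was given with an antibody against PD-1, a checkpoint receptor of T cells (labeled 10/2-Trikine + PD1). The antibody, clone RMP1-14, was given at 200 µg on days 7, 11, 15 and 19, and the labels name it for the combination only, although the protocol can be read as giving it to all mice. Each group was 1 library of live sorted CD45+ cells, no untreated library was analyzed here, and neither the number of mice nor a replicate stands behind any value. The labels call the cells T cells, but 10 of 10 macrophage markers were higher in the macrophage-like class than in all other cells. The same markers named that class, so this count is no independent check.

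C1q is the recognition molecule of the classical complement pathway. It is built from the A, B and C chains that C1qa, C1qb and C1qc encode, and in most tissues macrophages are its main source, where it also tags dying cells and synapses for uptake. Apolipoprotein E, the product of Apoe, carries cholesterol and other lipids out of cells and into lipoprotein particles. Mrc1 encodes the mannose receptor, an endocytic lectin of tissue macrophages and some dendritic cells. Ms4a7 encodes a membrane-spanning protein of the MS4A family found in macrophages, Cxcl14 a chemokine, Cd72 a lectin-like coreceptor best known on B cells, and Slamf9 a receptor of the SLAM family.

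The 3 C1q chains lie side by side. In the RefSeq annotation of GRCm38.p6, C1qb, C1qc and C1qa are consecutive protein-coding genes on chromosome 4, Apoe lies next to Apoc1 on chromosome 7, and Ms4a7 lies between Ms4a14 and Ms4a4a on chromosome 19. RefSeq promoter windows were found for 8 of the 9 genes, all but C1qa. The 250 bases before the annotated start are shown for both C1q chains with an entry, whose levels moved together, and for Mrc1 and Cxcl14, whose levels did not follow each other. They are read 5′ to 3′ on the strand of the gene, and capitals mark matches on either strand to GAGGAA, a core of PU.1 and other ETS factors, to TGCTGA, a core of the MAF recognition element, and to TTCNNNGAA, a STAT element. The windows are chr4:136886201-136886450 (minus strand) for C1qb, chr4:136892915-136893164 (minus strand) for C1qc, chr2:14229164-14229413 (plus strand) for Mrc1 and chr13:56296552-56296801 (minus strand) for Cxcl14. The labels and the methods name different genome builds for the counts, so these coordinates are those of RefSeq and not of the deposited files.
C1qb: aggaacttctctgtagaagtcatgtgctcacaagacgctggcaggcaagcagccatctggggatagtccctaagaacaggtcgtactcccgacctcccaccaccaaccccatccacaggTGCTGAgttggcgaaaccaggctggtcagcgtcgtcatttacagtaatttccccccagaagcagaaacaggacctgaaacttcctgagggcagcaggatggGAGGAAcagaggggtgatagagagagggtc
C1qc: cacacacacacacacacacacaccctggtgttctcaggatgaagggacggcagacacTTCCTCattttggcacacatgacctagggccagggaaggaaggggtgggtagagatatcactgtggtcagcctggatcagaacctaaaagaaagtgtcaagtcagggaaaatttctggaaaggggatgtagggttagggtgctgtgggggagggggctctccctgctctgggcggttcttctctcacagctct
Mrc1: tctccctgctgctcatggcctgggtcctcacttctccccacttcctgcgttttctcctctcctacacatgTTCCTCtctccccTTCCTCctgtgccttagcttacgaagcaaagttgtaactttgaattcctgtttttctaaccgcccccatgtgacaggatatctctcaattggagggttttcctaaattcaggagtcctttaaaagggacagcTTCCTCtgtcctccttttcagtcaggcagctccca
Cxcl14: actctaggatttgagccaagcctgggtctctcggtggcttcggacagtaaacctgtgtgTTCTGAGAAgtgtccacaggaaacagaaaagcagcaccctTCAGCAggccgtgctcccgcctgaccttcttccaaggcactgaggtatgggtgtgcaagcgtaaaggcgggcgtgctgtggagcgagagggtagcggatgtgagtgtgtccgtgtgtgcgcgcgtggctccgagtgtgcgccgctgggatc

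GAGGAA occurred in the windows of 6 of the 8 genes, namely Apoe, C1qb, C1qc, Cd72, Mrc1 and Slamf9, which is 7 of their 11 windows (63.6%), beside 23.3% of all 32851 windows of this length. The Mrc1 window held 3 matches and each C1q window held 1. TGCTGA was found for C1qb and Cxcl14, against 16.1% of all windows, and TTCNNNGAA for Cxcl14 alone, against 7.02%. A match of letters is no evidence of binding. Most of these genes have 1 annotated start, but Apoe has 3 windows, of which 2 overlap, and Ms4a7 has 2.

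Libraries were of like depth, with 158570946 to 197176873 UMIs in all barcodes and a median of 4273 to 5562 per kept cell. A UMI is a tag that counts 1 captured transcript. Of 71909 kept cells, 8534 fell into macrophage-like clusters (3122, 1536 and 3876 by library, in the order mono-IL-10, IL-10/2-Trikine, combination that every set of 3 values follows), 5625 into monocyte-like, 750 into cDC2-like and 289 into cDC1-like clusters. A cluster led by Itgad held 2956 cells. Its cells carried high C1q, and 8 of 10 macrophage markers and 4 of 6 cDC1 markers were higher in it than in all other cells. Clec9a and Itgae were the cDC1 markers that were not. Its 10 leading genes held a cDC1 marker, Cadm1, and no macrophage marker, so it was left unnamed. By the naming rule it met 3 cDC1 markers, as did the macrophage-like clusters led by Gpc5, Lipg, Ch25h and Hspa1b. A further cluster of 3666 barcodes, called macrophage/T here, carried macrophage transcripts together with Cd3, and 90.4% of its barcodes had a UMI of Cd3d, Cd3e or Cd3g. The 9 genes were kept out of clustering and naming. Free RNA in the droplets adds UMIs of abundant genes to every class. In barcodes of 10 to 100 UMIs, which hold mainly free RNA, C1qa reached 876, 243 and 594 CPM (a gene's UMIs scaled by the total of the pool). Between 137 and 180 kept barcodes (0.62% to 0.79%) recurred in any 2 libraries.

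In macrophage-like cells, C1qa was at 3498 (exact 95% Poisson interval, 3472 to 3525), 3062 (3024 to 3100) and 3736 (3708 to 3764) CPM, where CPM is the gene's UMI count scaled by the total UMIs of the class in that library to the usual CPM scale. Every interval given here covers counting error alone, and levels are not compared between genes, since capture differs between transcripts. C1qb was at 3457, 2835 and 3320 CPM. C1qc was at 4740, 3872 and 4540 CPM. For all 3 chains the IL-10/2-Trikine library was the lowest, and the mono-IL-10 and combination libraries changed places. Cd72 was at 2098, 1648 and 1778 CPM, highest with mono-IL-10. Ms4a7 was at 727, 611 and 656 CPM. Slamf9 was at 458, 358 and 419 CPM, and again the IL-10/2-Trikine library was lowest. Apoe was at 497, 447 and 445 CPM, with overlapping intervals in the libraries with the IL-10/2-Trikine. Cxcl14 was at 289, 272 and 293 CPM, a narrow range. Mrc1 was at 13.2, 62.3 and 21.8 CPM, from 258, 516 and 400 UMIs, and the IL-10/2-Trikine library was the highest.

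**Figure D1:**
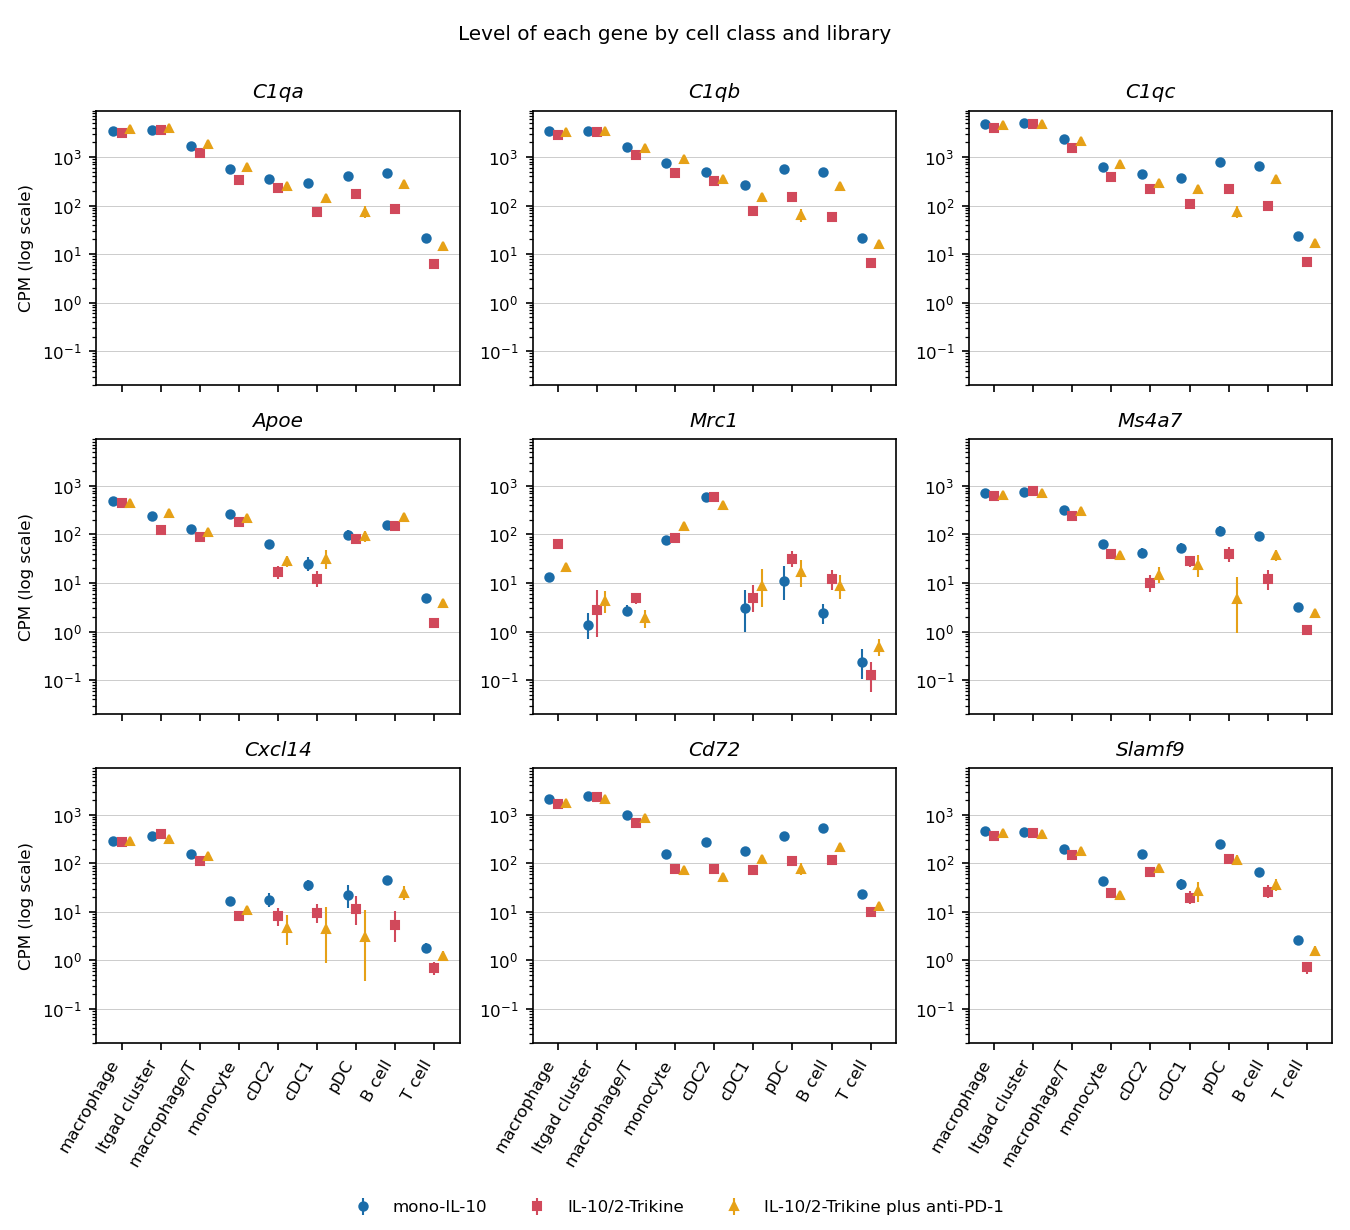
Level of each gene in CPM (log axis) in 9 cell classes, with a point for each library and bars for the exact 95% Poisson interval. C1qa, C1qb, C1qc, Ms4a7, Cxcl14, Cd72 and Slamf9 are highest in the macrophage-like class and the Itgad cluster, whereas Mrc1 is highest in cDC2-like cells.

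Across classes, 7 of the genes followed a common order. For C1qa the Itgad cluster (3640 to 3866 CPM over the libraries) and macrophage-like cells (3062 to 3736 CPM) overlapped at the top, macrophage/T barcodes came next at 1226 to 1807 CPM, and monocyte-like cells followed at 330 to 619 CPM, with no overlap between these last steps. C1qb, C1qc, Ms4a7, Cxcl14, Cd72 and Slamf9 had the same 3 groups at the top in the same order, and the Itgad cluster lay above macrophage-like cells without overlap for C1qc, Ms4a7, Cxcl14 and Cd72. Below them the neighbors in the order mostly overlapped. Cd72, which B cells are known to express, was at 526, 119 and 220 CPM in B cell-like cells, below macrophage/T barcodes in every library. Slamf9 was at 247, 124 and 119 CPM in plasmacytoid DC-like cells.

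Apoe and Mrc1 departed from that order. Apoe was highest in macrophage-like cells and fell to 235, 123 and 278 CPM in the Itgad cluster, which overlapped with monocyte-like cells at 257, 181 and 220 CPM. B cell-like cells had 160, 150 and 227 CPM of Apoe. They also held C1qa at 85.2 to 474 CPM over the libraries. At resolution 2 a B cell-like cluster of 285 cells met 5 macrophage markers as well. What macrophage transcripts contributed to Apoe and Cd72 in B cell-like cells was not tested. Mrc1 was highest in cDC2-like cells, at 584, 597 and 404 CPM, then in monocyte-like cells, at 78.3, 84.4 and 148 CPM, and without overlap between these classes. The cDC2-like cluster met 5 of 6 cDC2 markers by the naming rule, but also 5 of 8 monocyte markers, and Retnla led it. At resolution 2, a cluster of 127 cells led by Retnla matched monocytes best and was left unnamed. How the Mrc1 of the cDC2-like class divides between cDC2 and other cells was not measured. Macrophage-like cells held 7.9%, 11.2% and 11.1% of all Mrc1 UMIs of kept cells, against 42.2%, 45.3% and 57.0% of C1qa UMIs. Most Mrc1 UMIs lay in cDC2-like cells (38.9%, 36.4% and 21.9%) and monocyte-like cells (34.7%, 19.0% and 50.4%). The unnamed Mgl2 cluster, in which most barcodes carried Cd3, held a further 13.05%, 27.4% and 10.7%.

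Shares of cells with a UMI were compared after each cell was thinned to 1000 UMIs, which left out 519, 138 and 677 shallower macrophage-like cells. C1qc was then found in 94.4%, 91.6% and 93.5% of macrophage-like cells, against 90.0%, 95.2% and 90.2% before thinning. The share in T cell-like cells, which should lack the gene, was 3.03%, 0.77% and 2.10%, at median depths of 3835, 4997 and 3343 UMIs against 6100, 4950 and 4716 in macrophage-like cells. All 3 chains were found together in 81.8%, 76.3% and 80.9% of thinned macrophage-like cells, in 85.6%, 84.3% and 84.3% of the Itgad cluster and in 12.2%, 7.65% and 14.7% of monocyte-like cells. Apoe was found in 21.5%, 15.5% and 18.7% of macrophage-like cells (0.48%, 0.18% and 0.57% of T cell-like cells), and unthinned in 32.8%, 26.2% and 28.6%. The order of the libraries was the same before and after thinning for Apoe. Mrc1 was found in 0.96%, 2.79% and 1.88% of macrophage-like cells, but in 29.9%, 31.2% and 22.1% of cDC2-like cells, where unthinned shares were 40.6%, 54.5% and 41.9%. The unthinned shares in macrophage-like cells were 2.82%, 7.55% and 4.46%, and thinned T cell-like cells had at most 0.071%. At this depth a macrophage-like cell seldom showed Mrc1.

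The proportion of the chains differed between classes. In macrophage-like cells C1qb gave 29.6%, 29.0% and 28.6% of C1q UMIs and C1qc gave 40.5%, 39.6% and 39.2%. Monocyte-like cells had the reverse order, with C1qb at 38.5% (95% interval, 37.9 to 39.0), 39.8% (38.9 to 40.7) and 41.1% (40.5 to 41.7) and C1qc at 32.6%, 32.2% and 31.5%. The cDC2-like cells resembled monocyte-like cells, with C1qb at 37.7%, 41.3% and 39.2%. Capture can differ between transcripts, so the order of chains within a class is not a ranking, but the same 3 transcripts were compared in every class. Low-count barcodes had 28.7%, 30.05% and 28.4% of C1qb, near the macrophage-like value and below that of monocyte-like cells in every library. T cell-like cells had 32.2%, 33.5% and 33.6%, between the other values.

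**Figure D2:**
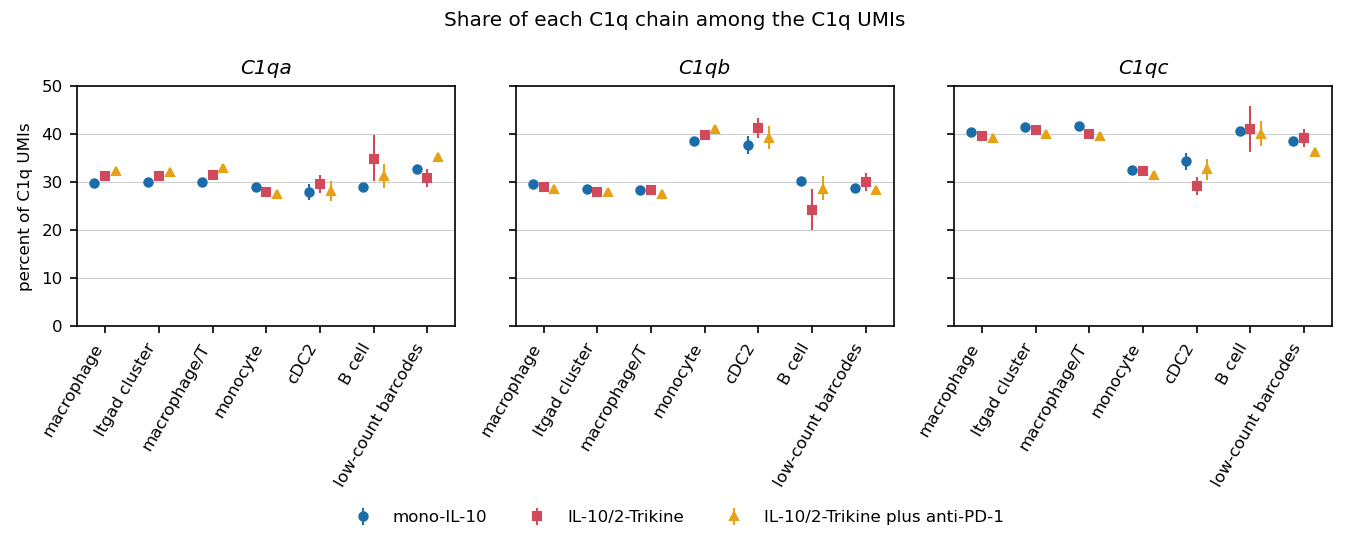
Percent of C1q UMIs that came from C1qa, C1qb and C1qc in 6 cell classes and in low-count barcodes, with a point for each library and exact binomial 95% intervals. Monocyte-like and cDC2-like cells hold more C1qb and less C1qc than macrophage-like cells in each library.

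The difference lay within the monocyte-like class too. In its cluster led by Chil3, C1qb was 46.8%, 46.8% and 47.4% of C1q UMIs. In the cluster led by Adgre4 it was 40.2%, 40.2% and 41.5%. In the small cluster led by Hpgd, with 86, 22 and 50 cells, it was 30.5%, 29.7% and 29.9%, close to macrophage-like cells. Of the Hpgd cluster, 30.4% of barcodes lay over the common doublet score, against 0.15% and 0.059% of the Chil3 and Adgre4 clusters, and its median depth was 12292, 11798 and 9538 UMIs, and what doublets contributed to its C1q was not tested. C1qa differed over these clusters, from 74.1, 80.1 and 164 CPM in the Chil3 cluster to 796, 469 and 812 CPM in the Adgre4 cluster and 1879, 1470 and 1850 CPM in the Hpgd cluster. Between the Chil3 and Adgre4 clusters, the one with less C1q held a larger part of it as C1qb in each library. Apoe varied less, at 208, 111 and 158 CPM in the Chil3 cluster, 310, 243 and 254 CPM in the Adgre4 cluster and 211, 52.6 and 275 CPM in the Hpgd cluster. Apoe UMIs per C1q UMI were 0.135, 0.154 and 0.0975 in monocyte-like cells against 0.0425, 0.0458 and 0.0384 in macrophage-like cells.

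Macrophage-like cells were not uniform. They formed 6 clusters, each called here by its leading gene (Gpc5, Lipg, Ch25h, Ccl8, Hspa1b and Mmp12). The Gpc5 cluster was the largest, with 34.5%, 31.7% and 32.2% of the class. It held the least Apoe, at 108, 43.1 and 80.6 CPM. A UMI of Mki67, a gene of cycling cells, was found in 66.5%, 73.1% and 62.1% of its cells, against at most 39.4% in the other clusters. Over the class, Apoe was at 227, 330 and 204 CPM in cells with an Mki67 UMI and at 739, 561 and 610 CPM in those without. The Ch25h cluster held 871, 429 and 604 CPM of Apoe and the Mmp12 cluster 3054, 1654 and 2902 CPM. The Ccl8 cluster, at 1017, 1692 and 1814 CPM, was shallow, with a median of 434.5, 571 and 472 UMIs per cell. Mrc1 was highest in the Mmp12 cluster, at 304, 352 and 260 CPM, followed by the Ccl8 cluster, at 46.9, 135 and 133 CPM, and was at 1.23 to 17.5 CPM in the Gpc5, Lipg, Ch25h and Hspa1b clusters over all libraries. The Mmp12 cluster had the lowest Cd72, at 719, 287 and 615 CPM, and the lowest Cxcl14, at 50.4, 14.8 and 26.5 CPM. The Lipg cluster had the highest Cxcl14, at 427, 462 and 425 CPM. C1qc varied less, from 1423 to 5587 CPM over the 6 clusters and 3 libraries.

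**Figure D3:**
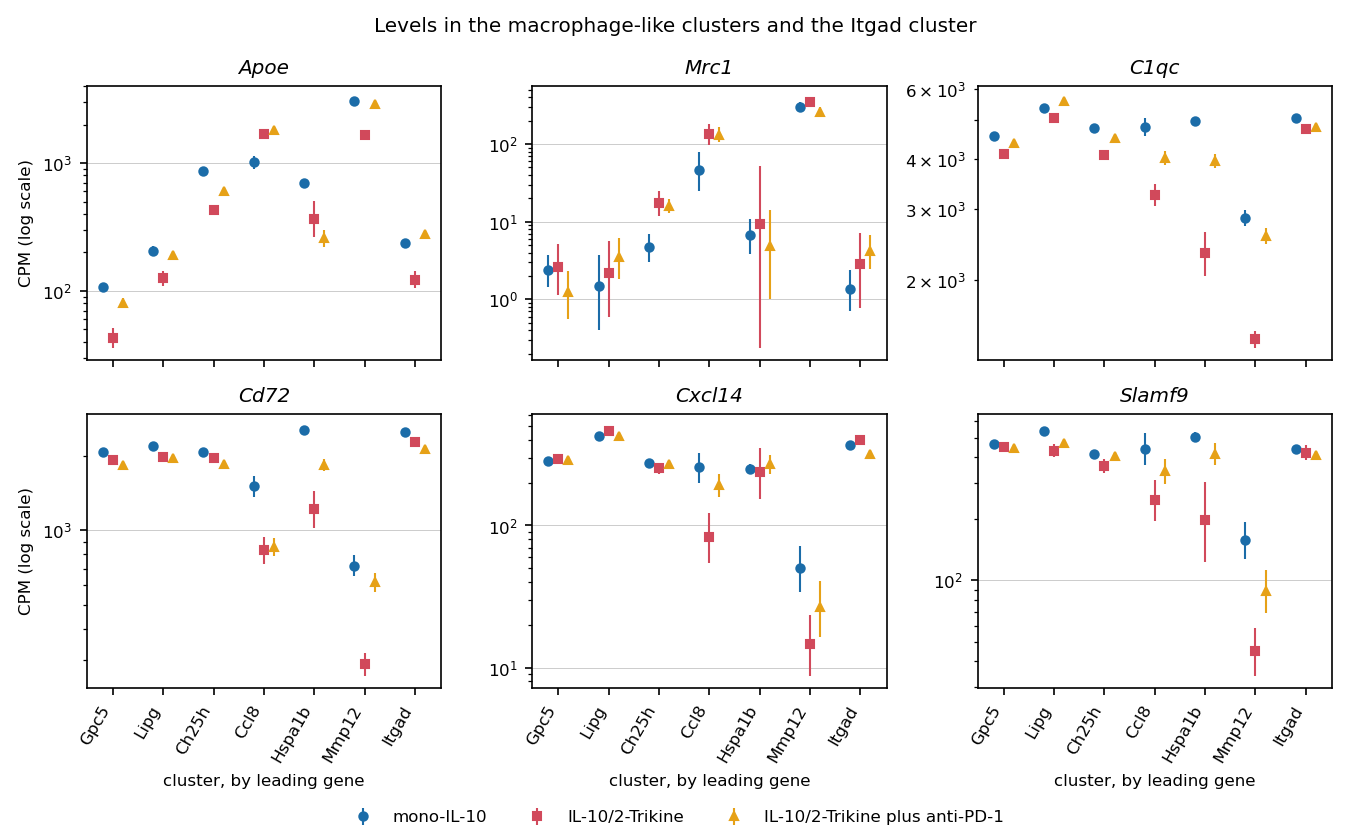
Level in CPM (log axes) of Apoe, Mrc1, C1qc, Cd72, Cxcl14 and Slamf9 in the 6 macrophage-like clusters and the Itgad cluster, with a point for each library and exact 95% Poisson intervals. Mrc1 is highest and Cd72, Cxcl14 and Slamf9 are lowest in the Mmp12 cluster, and Apoe is highest there in the mono-IL-10 and combination libraries but at 1692 CPM in the Ccl8 cluster against 1654 CPM with the IL-10/2-Trikine.

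Over the 20 points that these clusters and the Itgad cluster gave with at least 50 cells in a library, Pearson correlations of log2 (CPM + 1) among C1qa, C1qb, C1qc, Ms4a7, Cxcl14, Cd72 and Slamf9 were 0.79 to 0.98. Apoe and Mrc1 correlated at 0.89 with each other. Mrc1 correlated at -0.90 with Cd72 and at -0.87 with Cxcl14. Over all 87 points of the data set, the 3 nearest of 11021 genes were C1qc, C1qb and Ms4a7 for C1qa (0.998, 0.992 and 0.983), C1qc, C1qa and Fcgr4 for C1qb, and C1qa, C1qb and Ms4a7 for C1qc. Those of Ms4a7 were the 3 C1q chains. Apoe lay near Lgmn, a lysosomal protease gene (0.932), and Cfb, which encodes complement factor B (0.903). Mrc1 lay nearest to Tfec, Clec4n and Hal (0.887, 0.885 and 0.880). Cxcl14 lay nearest to Htra4, Cd300e and Cd72, Cd72 to Cxcl14, Ms4a7 and Fcrl5, and Slamf9 to C1qc, C1qa and Klra17. The points share libraries and depth, and Lgmn was itself among the markers used to name macrophages, so these values are a description.

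The first comparison set the IL-10/2-Trikine against mono-IL-10 and addressed what recruiting the IL-2 receptor adds. In macrophage-like cells 8 of the 9 genes were lower with the IL-10/2-Trikine, by modest amounts, and Mrc1 was higher. C1qa had a ratio of 0.88 (95% interval, 0.86 to 0.89), C1qb of 0.82 (0.81 to 0.83) and C1qc of 0.82 (0.81 to 0.83). Cd72 had a ratio of 0.79 (0.77 to 0.80) and Slamf9 of 0.78 (0.75 to 0.81). The ratio was 0.84 for Ms4a7, 0.90 for Apoe and 0.94 for Cxcl14. Mrc1 had a ratio of 4.71 (4.05 to 5.49), from 258 and 516 UMIs. It alone passed 1.5-fold. Of all 12774 genes with 20 UMIs in the pair, 8.53% were higher and 5.35% were lower by at least 1.5-fold, so 1 of 9 higher and 0 of 9 lower are near those shares. The median log2 ratio of the 9 genes was -0.25, beside 0.04 for all genes. With 1 library per group there is no test of these differences.

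The second comparison set the combination against the IL-10/2-Trikine and addressed what the PD-1 antibody adds. In macrophage-like cells the C1q ratios were 1.22 (1.20 to 1.24) for C1qa, 1.17 (1.15 to 1.19) for C1qb and 1.17 (1.16 to 1.19) for C1qc. Slamf9 had a ratio of 1.17 (1.12 to 1.22). Ms4a7, Cxcl14 and Cd72 had ratios of 1.07, 1.08 and 1.08, and Apoe of 0.996 (0.958 to 1.04). Mrc1 had a ratio of 0.35 (0.31 to 0.40). Of 12778 genes, 4.82% were higher and 7.24% were lower by at least 1.5-fold, beside 0 and 1 of the 9. Both comparisons use the IL-10/2-Trikine library, so a low or high value there moves them in opposite directions.

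**Figure D4:**
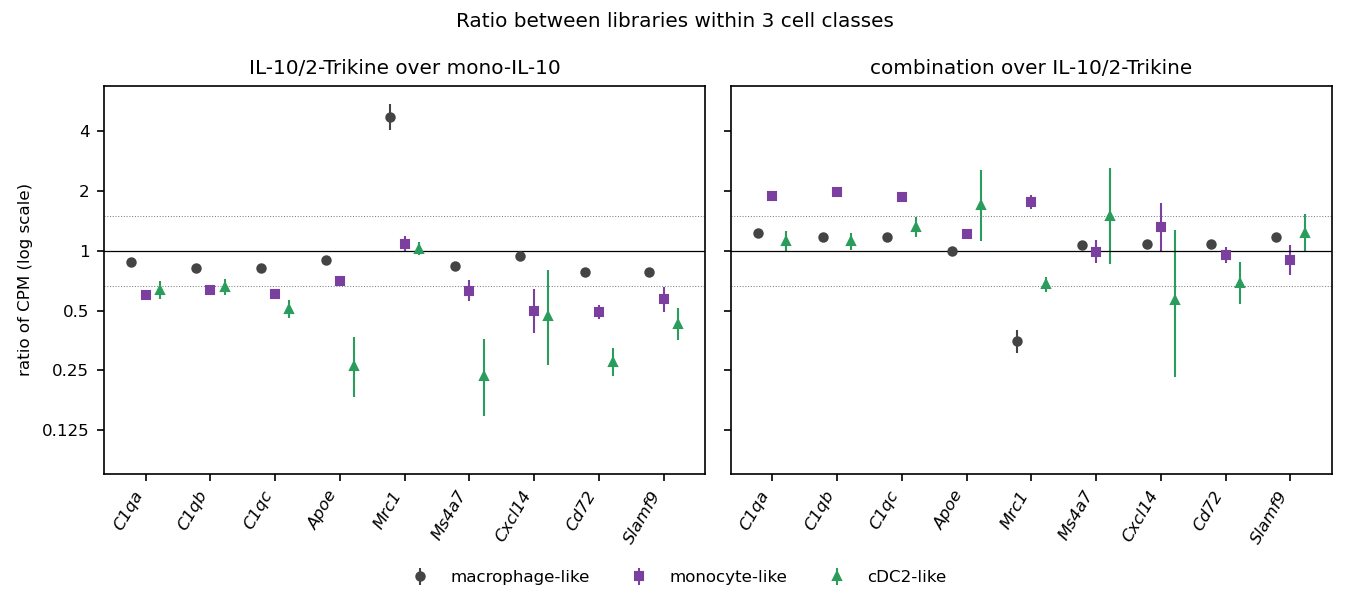
Ratio of CPM (log axis) of each gene in the first (left) and second (right) comparison in macrophage-like, monocyte-like and cDC2-like cells, with exact 95% intervals and dotted lines at 1.5-fold. Mrc1 in macrophage-like cells stands at 4.71 and 0.35, and the C1q chains in monocyte-like cells lie at 0.60 to 0.64 and 1.87 to 1.98.

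The class values depended on the Mmp12 cluster, those of Apoe and Mrc1 most. That cluster had 71, 104 and 122 cells, or 2.3%, 6.8% and 3.1% of the class, and 3.05%, 14.7% and 4.32% of the class's UMIs. It held 18.7%, 54.5% and 28.1% of the class's Apoe UMIs and 70.2%, 83.3% and 51.5% of the class's Mrc1 UMIs. Without it, Apoe had a ratio of 0.57 (0.54 to 0.60) in the first comparison and 1.401 (1.33 to 1.48) in the second, and Mrc1 had ratios of 2.99 (2.17 to 4.12) and 0.91 (0.70 to 1.18). In the first comparison the ratios without it were 0.95 for C1qa, 0.90 for C1qb, 0.89 for C1qc and 0.92 for Ms4a7. They were 0.88 for Cd72 and for Slamf9, and 1.07 for Cxcl14. Those of the second comparison were 1.13, 1.08, 1.08, 0.99, 0.97, 1.05 and 0.96 in the same order. Within clusters, Apoe was lower with the IL-10/2-Trikine in 5 of 6, with ratios from 0.40 in the Gpc5 cluster to 0.61 in the Lipg cluster and intervals below 1. The Ccl8 cluster was the exception, at 1.66 (1.44 to 1.93). Apoe was higher with the combination in 4 of the 6, at 1.41 to 1.87, and was at 1.07 (0.96 to 1.19) in the Ccl8 cluster and 0.70 (0.49 to 1.02) in the Hspa1b cluster. Within the Mmp12 cluster Mrc1 had ratios of 1.16 (0.97 to 1.39) and 0.74 (0.62 to 0.87), and in the Ch25h cluster of 3.74 (2.13 to 6.66) and 0.92 (0.61 to 1.43). The Mmp12 cluster was left out after its values had been seen.

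**Figure D5:**
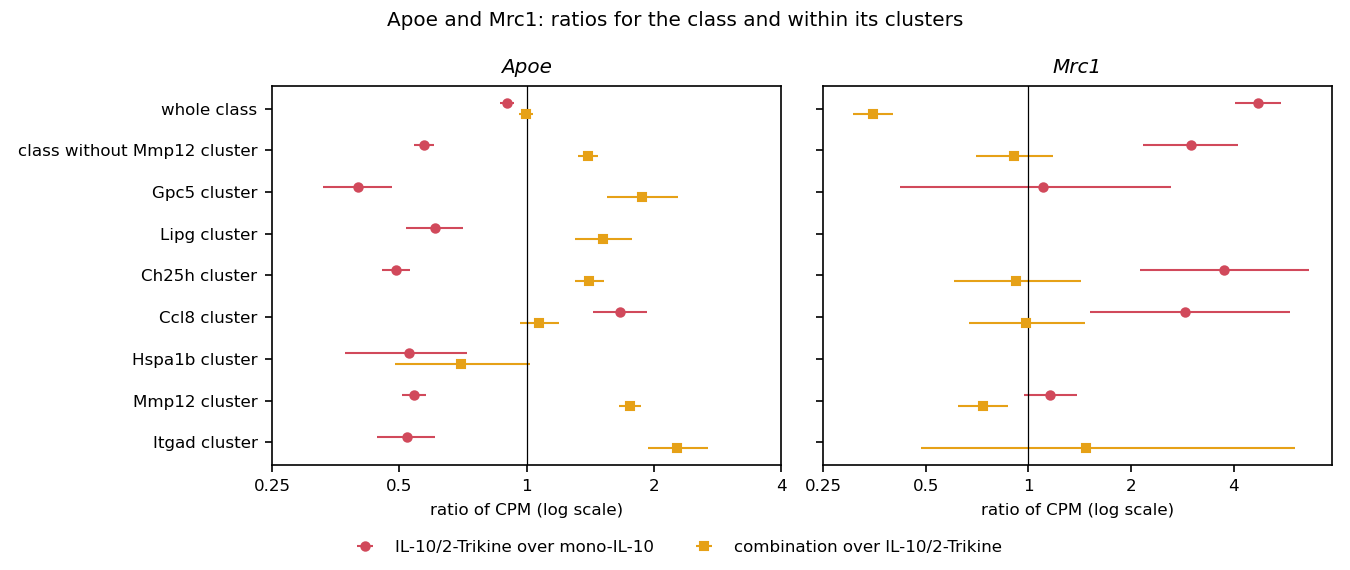
Ratios of CPM (log axis) of Apoe (left) and Mrc1 (right) for both comparisons, in the whole macrophage-like class, in the class without the Mmp12 cluster and within each cluster and the Itgad cluster with 20 UMIs in the pair, with exact 95% intervals. Apoe is near 0.90 for the class but between 0.40 and 0.61 in 5 of the 6 macrophage-like clusters.

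Transcripts of other cells moved with these values. Barcodes with a Cd3 UMI were 22.5%, 55.8% and 24.6% of the Mmp12 cluster, and its summed T cell markers were at 442, 2371 and 775 CPM. Its NK cell markers summed to 605, 3788 and 737 CPM and its macrophage markers to 5804, 3785 and 5776 CPM, and leaving out barcodes with Cd3 does not remove NK cell transcripts. In its barcodes without a Cd3 UMI (55, 46 and 92 cells), Apoe was at 3299, 2471 and 3155 CPM and Mrc1 at 370, 571 and 296 CPM. The Apoe ratios there were 0.75 (0.69 to 0.82) and 1.28 (1.18 to 1.39), and the Mrc1 ratios 1.54 (1.25 to 1.91) and 0.52 (0.42 to 0.64). In the whole macrophage-like class, the 10 T cell markers summed to 129, 520 and 188 CPM, the 7 NK cell markers to 77.3, 788 and 215 CPM, the 8 monocyte markers to 180, 422 and 287 CPM and the 6 cDC2 markers to 2.77, 15.7 and 3.43 CPM, with no marker of these lists at 0 in any library. The macrophage markers summed to 2547, 2501 and 2540 CPM. Among macrophage-like cells without a Cd3 UMI (2693, 1296 and 3156 cells), Mrc1 was at 13.5, 42.0 and 21.1 CPM and Apoe at 488, 335 and 434 CPM. In those with a Cd3 UMI, Mrc1 was at 11.7, 125.3 and 24.6 CPM and Apoe at 545, 794 and 486 CPM. The direction of Mrc1 was the same in both sets, and what other cells in the droplets contributed to the size was not tested.

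In monocyte-like cells the C1q chains differed between libraries. C1qb was at 735 (721 to 749), 469 (456 to 482) and 927 (910 to 944) CPM. C1qa was at 553, 330 and 619 CPM and C1qc at 624, 380 and 710 CPM. Again the IL-10/2-Trikine library was lowest and the combination library highest, with intervals apart. In the first comparison C1qa had a ratio of 0.60 (0.57 to 0.62), C1qb of 0.64 (0.62 to 0.66) and C1qc of 0.61 (0.59 to 0.63). Apoe, at 257, 181 and 220 CPM, had a ratio of 0.70 (0.67 to 0.75). Cd72, at 152, 74.7 and 71.0 CPM, had a ratio of 0.49 (0.45 to 0.53). Of the 9 genes, 7 were lower by at least 1.5-fold and 0 were higher, beside 6.99% and 5.16% of 11871 genes, and their median log2 ratio was -0.72 beside -0.02 for all genes. The exceptions were Apoe and Mrc1, at 1.08 (0.99 to 1.18). The small Hpgd cluster made up 4.4%, 1.2% and 2.7% of the class's cells. In mono-IL-10 barcodes without a Cd3 UMI, Cd72 was at 1118 CPM in the Hpgd cluster. There Cd72 was at 143 CPM in the Adgre4 cluster and at 20.3 CPM in the Chil3 cluster. The count of 7 was not repeated without the Hpgd cluster, so the part of that cluster in the count was not tested. Beside these values, the 8 monocyte markers summed to 9549, 10737 and 10438 CPM in monocyte-like cells, the 10 macrophage markers to 2653, 2279 and 2510 CPM, the 7 NK cell markers to 64.0, 144 and 162 CPM, the 7 neutrophil markers to 227, 385 and 201 CPM and the 6 cDC2 markers to 31.2, 62.1 and 55.3 CPM. Their part in the result was not tested.

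With the combination, 4 of the 9 genes were higher than with the IL-10/2-Trikine in monocyte-like cells by at least 1.5-fold and 0 were lower, beside 4.62% and 5.17% of 11664 genes. They were C1qa at 1.88 (1.80 to 1.96), C1qb at 1.98 (1.91 to 2.05), C1qc at 1.87 (1.80 to 1.94) and Mrc1 at 1.75 (1.62 to 1.90). Cd72, Ms4a7 and Slamf9 had ratios of 0.95, 0.99 and 0.89 over the class, with intervals that held 1. In each of its clusters the interval of Slamf9 held 1 too, but those of Cd72 and Ms4a7 did not in each. After thinning, C1qb was found in 27.1%, 19.7% and 35.2% of monocyte-like cells (2.42%, 0.57% and 2.26% of T cell-like cells), and in 43.0%, 29.3% and 50.6% before thinning. Mrc1 was found in 4.30%, 3.85% and 9.74%, and in 11.6%, 11.3% and 24.8% before thinning. The order of the libraries was the same by share and by CPM for C1qb.

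The clusters of the monocyte-like class differed. In the Adgre4 cluster, with 1074, 1159 and 1180 cells, the C1q ratios of the first comparison were 0.59 for all 3 chains and those of the second 1.73 to 1.87. At resolution 2, a cluster led by Ace and Adgre4 had C1qa in 17.5% of cells and held 182, 436 and 184 cells. Clusters led by Ccl24 (381, 307 and 334 cells) and Cxcl11 (270, 170 and 316 cells) had C1qa in 60.2% and 40.6%. At that resolution the clusters led by Ace and by Ccl24 were named macrophage-like, and the one led by Cxcl11 monocyte-like. The part of such a shift in make-up in these ratios was not tested. In the Chil3 cluster, with 805, 658 and 591 cells, the first C1q ratios were 1.06 to 1.08 with intervals that held 1, and the second 2.03 to 2.09. In the small Hpgd cluster the first ratios of C1qa, C1qb and C1qc were 0.78, 0.83 and 0.92. The second were 1.26, 1.12 and 1.01 there, with intervals that held 1 for C1qb and C1qc. Mrc1 in the Chil3 cluster was at 59.5, 46.0 and 152 CPM, with ratios of 0.77 (0.65 to 0.92) and 3.32 (2.83 to 3.90). In the Adgre4 cluster it was at 103, 117.2 and 149 CPM, with ratios of 1.13 (1.02 to 1.26) and 1.27 (1.15 to 1.403). Apoe was lower with the IL-10/2-Trikine in each of the 3 monocyte-like clusters, at 0.53 (0.48 to 0.59) in the Chil3 cluster, 0.79 (0.73 to 0.84) in the Adgre4 cluster and 0.25 (0.14 to 0.42) in the Hpgd cluster, which had 22 cells in that library. The class ratios of Cd72 and Ms4a7 did not hold in each cluster either. In the first comparison Ms4a7 was at 1.66 (1.22 to 2.25) in the Chil3 cluster, 0.54 (0.46 to 0.64) in the Adgre4 cluster and 1.07 (0.85 to 1.35) in the Hpgd cluster. Cd72 was at 1.22 (0.94 to 1.60), 0.54 (0.48 to 0.61) and 0.82 (0.71 to 0.94) in the same clusters. Of the 7 genes lower by 1.5-fold over the class, 0 were lower by that much in the Chil3 cluster. In the second comparison Cd72 was below 1 in each of the 3 clusters, at 0.70 (0.52 to 0.96), 0.82 (0.72 to 0.94) and 0.84 (0.71 to 0.99), and Ms4a7 was at 0.59 (0.42 to 0.83) in the Chil3 cluster. Free RNA moved in the same direction as the C1q of the class. C1qb was at 766, 237 and 478 CPM in low-count barcodes and at 21.7, 6.69 and 16.2 CPM in T cell-like cells, and its part in the ratios was not tested.

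In cDC2-like cells, the macrophage genes were lower with the IL-10/2-Trikine than with mono-IL-10, while Mrc1 was not. Mrc1 had a ratio of 1.02 (0.95 to 1.10), from 1269 and 1683 UMIs. Apoe, at 63.5, 16.7 and 28.2 CPM, had a ratio of 0.26 (0.18 to 0.37). Cd72, at 271, 74.5 and 51.3 CPM, had a ratio of 0.28 (0.23 to 0.32). All 8 genes other than Mrc1 were lower by at least 1.5-fold, at 0.24 to 0.66, beside 11.4% of 9875 genes lower, and 0 of 9 were higher, beside 5.99%. In the second comparison Mrc1 had a ratio of 0.68 (0.62 to 0.74), C1qc of 1.31 (1.17 to 1.47) and Cd72 of 0.69 (0.54 to 0.88), and Apoe of 1.69 (1.12 to 2.55) from 47 and 55 UMIs. Apoe was the 1 gene past 1.5-fold upward and Cxcl14 the 1 downward, at 0.57, beside 6.47% and 8.31% of 9684 genes. Cxcl14 had only 70 UMIs in cDC2-like cells over all libraries, so its ratio rests on few counts. In low-count barcodes Cd72 was at 728, 146 and 352 CPM and Cxcl14 at 74.7, 21.7 and 43.5 CPM, and the part of free RNA in either comparison was not tested. In cDC2-like cells the 8 monocyte markers summed to 2923, 3155 and 3127 CPM, above the 6 cDC2 markers, at 866, 1266 and 1122 CPM. The 10 T cell markers summed to 510, 352 and 360 CPM in these cells, the 10 macrophage markers to 873, 730 and 729 CPM and the 7 NK cell markers to 328, 339 and 512 CPM. The part of these other markers was not tested either. The cDC1-like cells, with 106, 127 and 56 cells, held C1qa at 288, 74.7 and 142 CPM and Mrc1 at 3.01, 5.01 and 8.77 CPM from 5 to 11 UMIs. Of these barcodes 50.2% had a Cd3 UMI. Their T cell markers summed to 2271, 2684 and 2199 CPM, above their cDC1 markers at 1847, 1884 and 1923 CPM. Their NK cell markers summed to 1176, 3611 and 605 CPM. What other cells contributed to these levels was not tested.

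Barcodes that also carried Cd3 were found at 7.12%, 3.56% and 4.73% of kept cells in the macrophage/T cluster. Their median depth was 12472, 12045 and 8661 UMIs, against 6100, 4950 and 4716 in macrophage-like cells. They held the 9 genes at a median of 0.47, 0.40 and 0.46 of the macrophage-like level, and the 10 macrophage markers at a median of 0.42, 0.35 and 0.40. The T cell markers were at a median of 54.0%, 71.6% and 55.8% of the T cell-like level. Apoe was low in them, at 131, 86.6 and 113 CPM, and gave 0.0231, 0.0223 and 0.0205 UMIs per C1q UMI, beside 0.0192, 0.0105 and 0.0232 in the Itgad cluster. C1qb was 28.4%, 28.4% and 27.5% of their C1q UMIs, near the macrophage-like share but below it in each library. Mrc1 was at 2.71, 4.85 and 1.88 CPM from 24 to 67 UMIs.

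Between libraries, the macrophage/T barcodes gave ratios below 1 for the same 8 genes as macrophage-like cells and above 1 for Mrc1 in the first comparison. In this comparison C1qc had a ratio of 0.66 (0.65 to 0.67) and Apoe of 0.66 (0.62 to 0.71). These 2 of the 9 genes were lower by at least 1.5-fold, Cd72 and C1qb lay just short of it at 0.67 and 0.68, and Mrc1 was higher at 1.79 (1.24 to 2.57), beside 10.6% and 5.87% of 13672 genes. The barcodes mix transcripts of macrophages and T cells. Their T cell markers were at a median of 54.0%, 71.6% and 55.8% of the T cell-like level. Their macrophage markers were at 0.42, 0.35 and 0.40 of the macrophage-like level. The part of this mixture in either comparison was not tested. In the second comparison C1qa had a ratio of 1.47 (1.44 to 1.505) and Apoe of 1.30 (1.20 to 1.41), and Mrc1, at 0.39 (0.23 to 0.63), was the gene past 1.5-fold, beside 7.82% higher and 4.78% lower of 12914 genes. The Itgad cluster, with 1656, 292 and 1008 cells, differed in that its C1q ratios were 0.93 to 0.99 and 1.01 to 1.06. Apoe was its exception, with ratios of 0.52 (0.44 to 0.61) and 2.27 (1.93 to 2.68), and it alone passed 1.5-fold with 20 UMIs in the pair, beside 7.53% lower and 6.85% higher of 10858 genes in the first comparison and 7.53% higher and 5.04% lower of 10045 in the second.

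Genes with related roles were measured in macrophage-like cells from lists that do not hold the 9. In the first comparison 8 of 9 measured uptake receptor genes (of 13 listed) were higher by at least 1.5-fold with a median log2 ratio of 1.07, beside 8.53% of all genes higher, 5.35% lower and a median of 0.04. Clec7a, the β-glucan receptor dectin-1, was at 124.5 and 273 CPM, a ratio of 2.19 (2.07 to 2.33). Mgl2, a lectin that is also on the cDC2 marker list, was at 0.15 and 6.16 CPM, and Clec10a, likewise, at 1.64 and 3.50 CPM. Without the Mmp12 cluster 2 of 7 measured genes were higher and 1 was lower (5.27% and 5.98% of all genes), and in cells without a Cd3 UMI 4 of 8 were higher (5.22% of all genes). In the second comparison 2 of 10 were higher and 4 lower, beside 4.82% and 7.24% of all genes, with Mgl2 at 0.21, Clec10a at 0.33 and Cd36, a scavenger receptor of lipids, at 0.52. Marco, counted among the 10, had no UMI in 1 library of that pair.

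Among chemokines, 7 of 15 measured genes were higher with the IL-10/2-Trikine and 0 were lower (8.53% and 5.35% of all genes), with a median of 0.47. Without the Mmp12 cluster 6 were higher (5.27% of all genes), and without Cd3-bearing cells also 6 (5.22%). Ccl24, which attracts eosinophils, was at 4.61 and 132 CPM, a ratio of 28.7 (23.1 to 36.0). Ccl8, a monocyte attractant that also leads 1 of the clusters, was at 69.5 and 423 CPM, a ratio of 6.09 (5.72 to 6.48). Cxcl1, which attracts neutrophils, had a ratio of 3.65. With the combination 1 was higher and 5 were lower (4.82% and 7.24% of all genes), with Ccl24 at 0.34, Ccl7 at 0.40 and Cxcl1 at 0.49.

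Other complement genes gave medians near 0 in both comparisons. The counts of this list and the next 2 are read beside 8.53% of all genes higher and 5.35% lower in the first comparison and 4.82% and 7.24% in the second. Of 16 measured, 2 were higher (C3, the central component of the cascade, at 2.08 among them) and 1 was lower (Itgam, a chain of complement receptor 3, at 0.57), with a median of 0.02. The combination gave 0 higher and 3 lower, C5ar1, a receptor for the C5a fragment, at 0.65 among them, and C1ra, a protease gene of the C1 complex, lay short of the threshold at 0.68 (0.37 to 1.26). Lipid handling genes, the group Apoe belongs to, gave 4 higher and 1 lower of 17 with a median of -0.01. Fabp5, a fatty acid carrier, was at 82.0 and 336 CPM, a ratio of 4.10 (3.85 to 4.36), Fabp4 at 0.41 and 9.54 CPM, and Lpl, lipoprotein lipase, at 33.8 and 71.0 CPM. In the second comparison 1 was higher (Apoc2 at 1.69) and 2 lower (Fabp4 at 0.28 and the cholesterol exporter Abca1 at 0.57). Apoptotic cell engulfment gave 1 higher (Mertk, a receptor for dying cells that is also on the macrophage marker list, at 1.66) and 1 lower (Itgb5 at 0.65) of 9, and 0 in the second.

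The families of Ms4a7 and Slamf9 were also measured, with the same shares over all genes beside them (8.53% higher and 5.35% lower in the first comparison, 4.82% and 7.24% in the second). Of 8 other MS4A genes, 2 were higher (Ms4a4b, known from T cells, at 4.19, and Ms4a4a at 1.502) and 1 was lower (Ms4a1, the CD20 gene of B cells, at 0.57 with an interval of 0.27 to 1.08) in the first comparison, and Ms4a4b at 0.34 and Ms4a4a at 0.65 were lower in the second. Of 8 SLAM genes, Slamf1 at 4.07, Cd84 at 1.93 and Slamf6 at 1.91 were higher in the first comparison and the same 3 were lower in the second, at 0.19, 0.62 and 0.65. Without the Mmp12 cluster 0 SLAM genes passed 1.5-fold in either comparison. In the IL-10 response, 1 of 13 genes was higher in the first comparison, Il1rn, the IL-1 receptor antagonist, at 1.61 (1.51 to 1.73), and 0 passed in the second, in which Hmox1 had the largest ratio, 1.39. Among transcription factors, 2 of 10 were higher in the first comparison (Tfec at 3.59 and Mitf at 1.56), and Tfec was lower in the second, at 0.58. The other 8 did not pass in the first comparison. Values of the MS4A, IL-10 response and transcription factor lists without the Mmp12 cluster are not reported here.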

How the data were processed

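Live CD45+ cells of 3 tumor libraries were sequenced by the authors with 10x 3′ v3.1 chemistry, and the deposited values are UMI counts per gene and barcode, not normalized, made with Cell Ranger and, by the methods, with intronic reads counted. The labels give mm10 and the methods a later build. Labels put 1 library in each group, so no test was run. Barcodes with 200 or more genes and no more than 20% of mitochondrial UMIs passed the filter (71909, a different number from the one the study states).

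Counts were scaled to 10000 per cell, and 2000 variable genes without the 9 genes gave 30 components, 20 neighbors and Leiden clusters at resolution 1 (scanpy 1.11.5, igraph 0.11.9, scikit-learn 1.9.0). Myeloid clusters were clustered again on 1500 variable genes. A cluster was named from at least 3 markers of a type that were 1.5-fold higher and in 10% of its cells, a rule set after the clusters had been seen. Scrublet's automatic threshold called 12.5% of cells in 1 library and 0 in the others, so no doublets were removed. At a common score of 0.25, 0.80% to 2.11% of cells were called, and leaving them out was an alternative. UMIs were summed per class and library, with exact Poisson intervals, exact conditional binomial intervals for ratios and exact Clopper-Pearson intervals for shares (95%, scipy 1.17.1, numpy 2.4.6, pandas 2.3.3, python 3.11.15). A gene was counted as higher or lower past 1.5-fold with 20 UMIs in the pair. A library at 0 was set at a floor of 3 UMIs only in the list counts that were repeated without the Mmp12 cluster or Cd3-bearing cells. In the shares over all genes, a gene at 0 in 1 library of the pair counted as past 1.5-fold. The calculations were tested on simulated data.

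The genes named are the 9, the 3 nearest to each by Pearson correlation of log2 (CPM + 1) over cluster and library sums of at least 50 cells among genes that reach 20 CPM, and the 3 with the largest ratio of at least 50 UMIs in the lists of complement, lipid handling, uptake receptor, engulfment, MS4A, SLAM, chemokine, IL-10 response and transcription factor genes. The genes and lists were chosen with earlier results of these data known. Some genes that this rule names are not reported here.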

Additional observations from a re-analysis of the deposited data

Results flagged for a closer look

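Mrc1 differed in direction between cell classes for the combination over the IL-10/2-Trikine. Its log2 ratio in macrophage-like cells minus that in monocyte-like cells was -2.32, from ratios of 0.35 and 1.75. The log2 ratio in monocyte-like cells minus that in cDC2-like cells was 1.37, from ratios of 1.75 and 0.68. Cd72 also differed, by 0.65 on the log2 scale between macrophage-like and cDC2-like cells, from ratios of 1.08 and 0.69. With 1 library per group, none of these 3 differences was tested. Without the Mmp12 cluster, chosen after its values had been seen, the Mrc1 ratio in macrophage-like cells was 0.91 (95% interval, 0.70 to 1.18).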

How the results depend on the processing

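No paired analysis was possible because each group was 1 library, and for the same reason no replicate could be left out. Among the 9 genes in macrophage-like cells, Mrc1 alone was past 1.5-fold, and its direction was the same in 14 of 14 alternatives in both comparisons. Ratios near 1 crossed it for Cxcl14 in the first comparison (0.48 to 1.07) and for Apoe (0.99 to 1.82), Ms4a7 (0.99 to 1.93), Cxcl14 (0.96 to 1.98) and Cd72 (0.96 to 1.97) in the second. Ratios in other classes were not run under these alternatives. The gene lists were repeated only without the Mmp12 cluster and without Cd3-bearing cells. The median log2 ratio of the 9 genes in macrophage-like cells (-0.25 in the first comparison and 0.11 in the second) was -0.18 and 0.077 in cells without a Cd3 UMI, -0.35 and 0.43 with the Cd3-rich cluster counted in, -0.49 and 0.34 at resolution 2, -0.32 and 0.18 with the 9 genes among the variable genes, -1.03 and 0.98 with a marker gate per cell, and -0.15 and 0.075 without the Mmp12 cluster, which was chosen after seeing the data. At resolution 2 clusters changed class. A cluster of 802 cells led by Ace and Adgre4 was named macrophage-like (monocyte-like in the main clustering). Also named macrophage-like were a cluster of 1022 cells led by Ccl24, which met 8 macrophage and 7 monocyte markers, and one of 1502 cells led by Itgad. A cluster of 815 cells led by Gpc5 was named cDC1-like. The macrophage-like class held 4682, 2436 and 4732 cells in place of 3122, 1536 and 3876. With the 9 genes among the variable genes, a cluster of 428 cells led by Ace was likewise named macrophage-like. With the gate, in which 24.8% to 42.2% of cells were macrophage-like, 8 of the 9 genes were lower in the first comparison (main value, 0) and 8 higher in the second (0). Beside these, 13.1% of all genes were lower in the first and 11.5% higher in the second with the gate. The count lower in the first comparison was 1 at resolution 2 (6.94% of all genes) and 1 without the Mmp12 cluster (5.98%). The count higher in the second was 1 with the Cd3-rich cluster (7.97% of all genes). The count lower in the second (1) was 0 at resolution 2, with the gate and without the Mmp12 cluster (7.19%, 11.5% and 3.46% of all genes). With no minimum of UMIs, 18.2% of all genes were higher and 20.2% lower in the first comparison, and 19.7% and 16.6% in the second. Thinning to 500 UMIs in place of 1000 gave a median share over the 9 genes of 27.1%, 26.5% and 25.7% against 45.1%, 43.4% and 43.2%. In the first comparison Mrc1 ranged from 1.94 to 5.61 and Apoe from 0.57 to 0.96. The cause of these shifts was not tested. A correction for free RNA could not be used, since the estimated fraction reached 244% in 1 library.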
